A study of Mus musculus with 8 samples.

Results

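The genes of the MHC class II antigen presentation complex were followed through single-cell RNA counts of 2 mouse pancreatic tumors. The 7 members were Cd74, H2-Aa, H2-Ab1, H2-Eb1, H2-DMa, H2-DMb1 and Ciita, chosen by gene symbol. Each has 1 row among the 27775 gene rows of both count tables. Both tumors were pancreatic ductal adenocarcinomas of untreated KPC mice, a genetically engineered model in which Cre recombinase is driven by the Pdx-1 promoter in the pancreatic lineage. The labels give neither age nor sex. One tumor was of medium size and one of large size, and the 4 technical replicates of each were pooled in a single table, so each size is represented by 1 sample. No p-value between cells, classes or tumors is therefore given, and every interval is an exact 95% interval that covers counting error only.

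MHC class II molecules are heterodimers that present peptides from the endocytic pathway to CD4+ T cells. H2-Aa and H2-Ab1 encode the alpha and beta chains of I-A, and H2-Eb1 encodes the beta chain of I-E. Cd74 encodes the invariant chain, which occupies the groove of new dimers until cathepsin S degrades it, and H2-DMa and H2-DMb1 encode the 2 chains of H2-DM, the chaperone that exchanges the last invariant chain peptide for antigen. Ciita encodes the transactivator that switches the whole set on. Dendritic cells, B cells and macrophages express these genes constitutively or on activation, and interferon gamma can induce them in other cells.

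In the GENCODE M21 annotation of GRCm38, 5 members lie in the MHC region of chromosome 17. H2-DMa spans chr17:34119541-34139101 on the plus strand, H2-DMb1 chr17:34153072-34160230 on the plus strand, H2-Ab1 chr17:34257689-34269419 on the plus strand, H2-Aa chr17:34282744-34287823 on the minus strand and H2-Eb1 chr17:34305867-34316674 on the plus strand. H2-DMb1 has a close paralog, H2-DMb2, just upstream (chr17:34143307-34151555), so the counts of these 2 genes could be shared between them and are uncertain.

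Class II promoters are known for a shared module, the X and Y boxes, bound by the RFX complex and by NF-Y, to which the CIITA protein is recruited. The RefSeq promoter table of GRCm38.p6 held entries for H2-Aa, H2-Eb1, H2-DMa and H2-DMb1 among the members. The 120 bases before the start of H2-Aa (chr17:34287824-34287943, minus strand), H2-Eb1 (chr17:34305747-34305866), H2-DMb1 (chr17:34153071-34153190) and H2-DMb2 (chr17:34145129-34145248) are shown because they have GATTGG within these bases, H2-DMb2 as the close paralog of H2-DMb1 and not as a member. These starts are those of the RefSeq promoter table. For H2-DMb1 and H2-DMb2 they lie downstream of the GENCODE M21 gene starts, so the bases shown overlap the gene spans given above. Capitals mark GATTGG, the Y box letters, or its reverse complement.
H2-Aa: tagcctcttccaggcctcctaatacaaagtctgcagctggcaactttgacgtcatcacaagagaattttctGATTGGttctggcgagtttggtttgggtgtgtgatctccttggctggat
H2-Eb1: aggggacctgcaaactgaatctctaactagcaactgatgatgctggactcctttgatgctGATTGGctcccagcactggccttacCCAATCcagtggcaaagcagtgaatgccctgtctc
H2-DMb1: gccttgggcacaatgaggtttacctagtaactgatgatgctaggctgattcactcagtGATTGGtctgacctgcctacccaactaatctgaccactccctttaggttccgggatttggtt
H2-DMb2: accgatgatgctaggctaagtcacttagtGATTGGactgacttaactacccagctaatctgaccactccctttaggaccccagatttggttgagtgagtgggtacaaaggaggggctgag
GATTGG began 49 bases before the start of H2-Aa, 60 before H2-Eb1, 62 before H2-DMb1 and 91 before H2-DMb2. Of the 2 starts listed for H2-DMa, one had no match and the other had one 199 bases upstream. On either strand, 16.1% of all 32851 promoters held GATTGG in their 300 bases, and 6.50% held one beginning 40 to 100 bases before the start. A match is a description of the letters only.

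The medium tumor had 2812 cells with 20301669 UMIs and the large tumor 1533 cells with 2239012 UMIs, and 5 cell barcodes were found in both tables. The median cell held 5456.5 UMIs in the medium and 1037 UMIs in the large tumor. Unique molecular identifiers (UMIs) were counted at the 3′ end of transcripts, so each UMI stands for a captured molecule whatever the length of the gene, and levels are given per 1000000 UMIs (CPM). Clusters were made without the class II genes and the genes of their pathway among the variable genes, and were named from markers outside the list. In the medium tumor, 2331 cells in 8 clusters were epithelial-like, 236 in 2 clusters macrophage-like, 74 mesothelial-like, 70 stromal-like and 38 endothelial-like. In the large tumor, 1218 cells were epithelial-like, 254 macrophage-like, 50 stromal-like and 11 endothelial-like. A cluster of 63 cells of the medium tumor, cluster 12, was left unnamed because 10 of 11 epithelial and 8 of 11 macrophage markers were detected in it. Epithelial markers were few (3 of 11) in cluster 7 of the medium and cluster 1 of the large tumor.

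Macrophage-like cells held most of the class II RNA, including that of the members outside the MHC region, Cd74 on chromosome 18 and Ciita on chromosome 16. They gave 12297 of the 17499 member UMIs of the medium tumor (70.3%, interval 69.6 to 70.9) and 956 of the 1069 of the large tumor (89.4%, interval 87.4 to 91.2). In the macrophage-like cells of the medium tumor, Cd74 stood at 5322 CPM (interval 5173 to 5473) and was the 13th most abundant transcript. H2-Aa followed at 2708 CPM, H2-Ab1 at 2623 CPM and H2-Eb1 at 2087 CPM. The intervals of H2-Aa (2603 to 2817) and H2-Ab1 (2519 to 2730) overlapped, while that of H2-Eb1 (1994 to 2183) lay below both. The peptide exchange chains were lower, with H2-DMa at 419 CPM and H2-DMb1 at 291 CPM. Ciita, the transactivator, had 6 UMIs in 6 cells (6.57 CPM, interval 2.41 to 14.3). Macrophage-like cells of the large tumor had H2-Aa at 1990 CPM, H2-Ab1 at 1300 CPM, H2-Eb1 at 965 CPM, H2-DMa at 432 CPM and H2-DMb1 at 91.4 CPM. Cd74 had only 15 UMIs there (76.1 CPM, interval 42.6 to 126), which overlapped the interval of H2-DMb1 (54.2 to 144) and lay below those of the other 4 chains. Ciita had 0 UMIs, a count that allows up to 15.2 CPM.

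**Figure D1:**
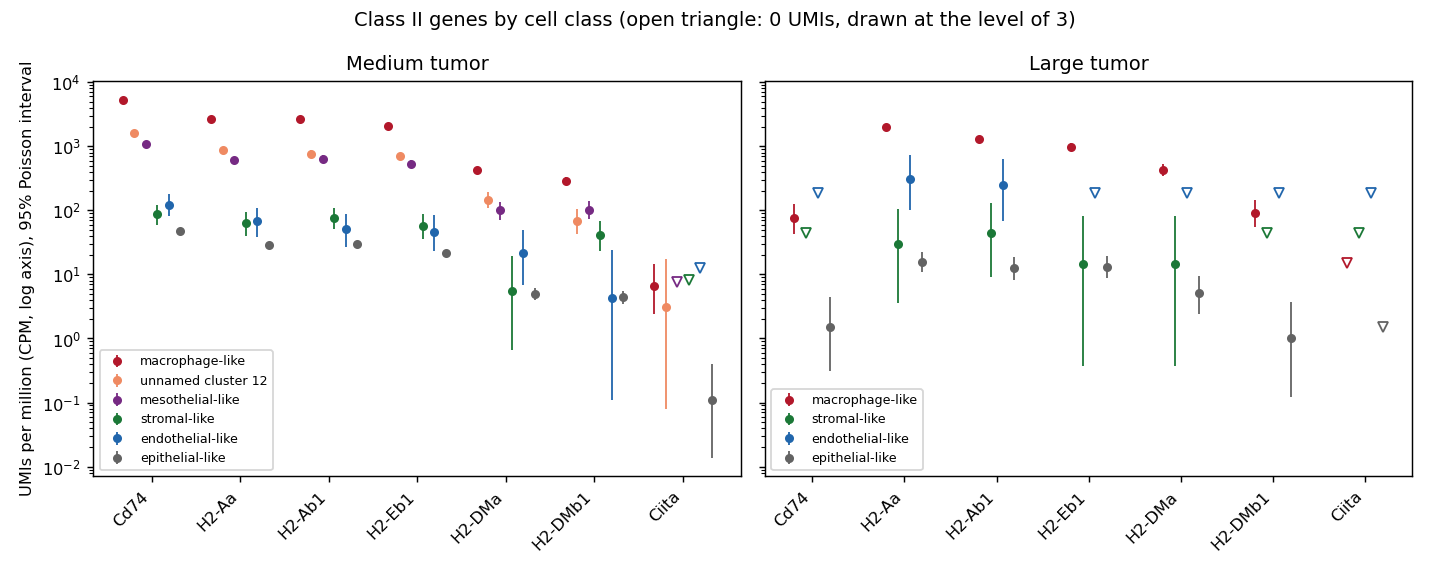
Level of each class II gene in each cell class of the medium (left) and large (right) tumor, as CPM on a log axis with exact 95% Poisson intervals, open triangles marking 0 UMIs at the level of 3 UMIs. Macrophage-like cells sit highest for the chain genes in both tumors, mesothelial-like cells and unnamed cluster 12 come next in the medium tumor, and Cd74 drops to 76.1 CPM in the macrophage-like cells of the large tumor.

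Epithelial-like cells, which include the carcinoma states, held 0.896% to 1.502% of the macrophage level of the members other than Ciita in the medium tumor and 0.796% to 2.01% in the large tumor. In the medium tumor Cd74 stood at 47.7 CPM in them, H2-Aa at 28.4 CPM, H2-Ab1 at 29.5 CPM and H2-Eb1 at 21.4 CPM. The summed members were 98.7-fold higher in macrophage-like than in epithelial-like cells of the medium tumor (interval 94.5 to 103) and 98.0-fold higher in those of the large tumor (interval 79.4 to 122). By gene, the ratio in the medium tumor ran from 66.6-fold for H2-DMb1 to 112-fold for Cd74. For Ciita, 6 UMIs against 2 gave a ratio of 59.3 with a counting interval of 10.6 to 601. The 6 members other than Ciita passed the filter of 50 UMIs in both classes together, and each was over 2-fold higher in macrophage-like cells, as were 10.5% of the 10893 genes compared. A further 27.1% of those genes were over 2-fold lower. In that of large size 4 members passed the filter, all only through their UMIs in macrophage-like cells (10 to 31 UMIs in epithelial-like cells), so their being higher follows in part from the filter. Of the 4693 genes compared there, 10.1% were over 2-fold higher and 24.4% lower.

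The low level in epithelial-like cells was set against macrophage genes that carcinoma cells should lack. In the medium tumor the summed members stood at 1.01% of their macrophage level in epithelial-like cells. C1qa, C1qb, C1qc, Lyz2, Tyrobp, Fcer1g, Ctss, Aif1 and Ms4a7 together stood at 0.773% of theirs, single genes from 0.533% to 1.25%. For the large tumor these values were 1.02% and 0.894%. The members' share was 1.31 times that of the macrophage genes in the medium and 1.14 times in the large tumor. The part of free RNA in these levels was not tested. A Cd74 UMI was found in 21.1% of epithelial-like cells of the medium tumor (median 5968 UMIs per cell) against 80.1% of macrophage-like cells (median 3516 UMIs). With every cell thinned to 2500 UMIs, the shares were 8.83% and 77.8%. Among 2331 epithelial-like cells, 35 held 10 or more member UMIs, and 24 of these also held 3 or more UMIs of 6 macrophage genes (C1qa, C1qb, C1qc, Tyrobp, Fcer1g, Aif1), while 11 held fewer than 3 and 4 of these none.

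Among the 8 epithelial-like clusters of the medium tumor, the summed members ranged from 101 CPM in cluster 8, led by Dmbt1 and Lcn2, to 268 CPM in cluster 7, led by Inhba and Bmp2, a 2.65-fold spread (interval 2.18 to 3.24). The other clusters lay between 104 and 145 CPM. The macrophage genes moved the same way, from 0.631% of their macrophage level in cluster 8 to 1.501% in cluster 7, and their part in the class II difference was not tested. For the large tumor the spread was 6.34-fold on few UMIs (14 in cluster 5, 26 in the goblet-named cluster 6), with macrophage genes at 0.529% and 1.78%. With other clusterings this spread ran from 3.95-fold to 15.6-fold.

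Mesothelial-like cells of the medium tumor had the highest class II level of any named class other than macrophages. These 74 cells were led by Dcn, Rarres2, C3, Nkain4 and Upk3b, and showed 6 of 6 mesothelial and 5 of 10 stromal markers. The stromal list summed to 12664 CPM in them, against 13079 CPM in stromal-like cells, and the mesothelial list to 2025 CPM. Cd74 stood at 1093 CPM in them (interval 992 to 1202), H2-Ab1 at 639 CPM, H2-Aa at 605 CPM, H2-Eb1 at 536 CPM, H2-DMb1 at 102 CPM and H2-DMa at 99.6 CPM. The sum was 22.6-fold above that of epithelial-like cells (interval 21.04 to 24.17) and 4.38-fold below that of macrophage-like cells (interval 4.12 to 4.65). The 6 members other than Ciita were over 2-fold above the epithelial-like cells, beside 13.7% of 10794 genes compared. Ciita had 0 UMIs in these cells, which allows up to 7.66 CPM, more than its macrophage level, so a difference was not detectable at this depth.

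The class II RNA of mesothelial-like cells did not come with macrophage genes in the ratio seen in the unnamed cluster. The 6 members other than Ciita stood at 20.5% to 35.1% of their macrophage level in mesothelial-like cells, while the macrophage genes other than Apoe stood at 0% to 4.77% of theirs, with a sum at 3.15%. Ciita had 0 UMIs in mesothelial-like cells and 1 in the unnamed cluster. Apoe, which other cells also make, was at 27.5%. In unnamed cluster 12 the same 6 members stood at 23.4% to 34.8% and the same macrophage genes at 24.4% to 33.3%. Of the 74 mesothelial-like cells, 49 held no UMI of the 6 macrophage genes, and in these 49 the summed members stood at 2569 CPM (interval 2369 to 2782), with Cd74 at 859 CPM. Of the 74 cells, 31 held 10 or more member UMIs (41.9%, interval 30.5 to 53.9), and 16 of these 31 held no UMI of the macrophage genes. Markers of other immune cells were also counted in the mesothelial-like cells, with 1 UMI over 6 B cell markers and 1 over 6 T cell markers. The 10 dendritic cell markers gave 16 UMIs (40.9 CPM, interval 23.4 to 66.4). Of these markers 3 were seen, while Flt3, Xcr1, Clec9a and Cd209a were among those at 0. The list stood at 27.4 CPM in macrophage-like and 21.8 CPM in epithelial-like cells. It stood at 65.1 CPM in the unnamed cluster, 117 CPM in stromal-like and 183 CPM in endothelial-like cells. A Cd74 UMI was present in 63.5% of the mesothelial-like cells (interval 51.5 to 74.4), or 56.4% after thinning to 2500 UMIs, against 8.83% of thinned epithelial-like cells.

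**Figure D2:**
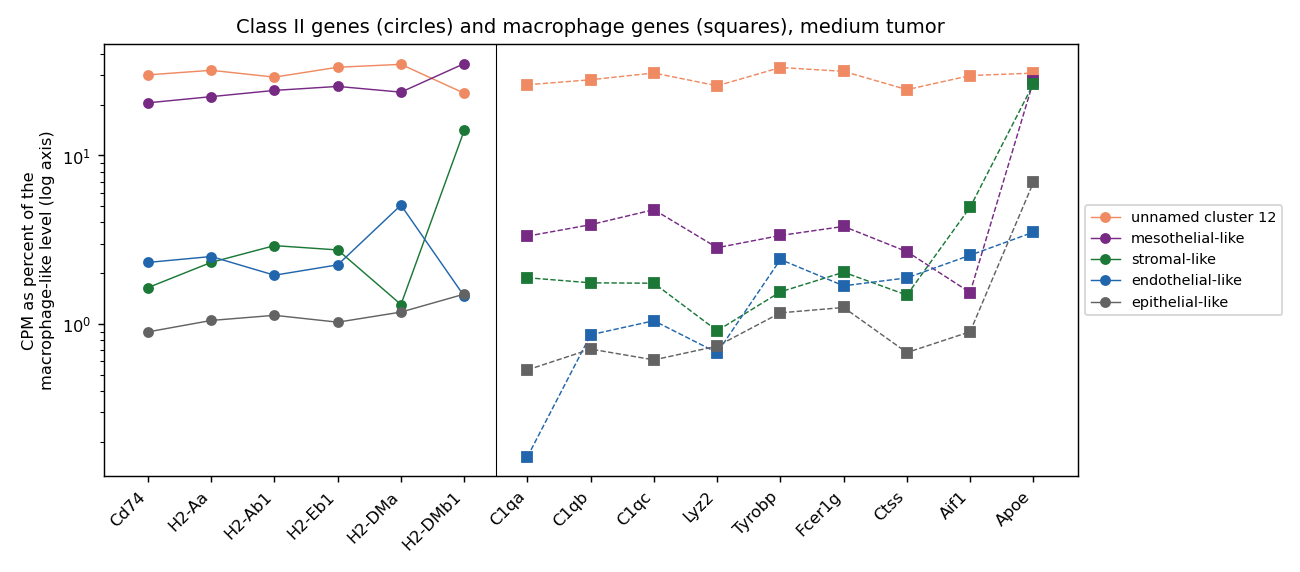
Level of 6 class II genes (circles) and 9 macrophage genes (squares) in 5 cell groups of the medium tumor, as a percent of the level in macrophage-like cells on a log axis. In mesothelial-like cells the class II genes lie at 20.5% to 35.1% and the macrophage genes other than Apoe below 4.77% or at it, whereas in unnamed cluster 12 both sets lie together. Ms4a7 is not drawn.

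The make-up of the summed class II RNA was compared between the classes. Cd74 made up 39.5% of the member UMIs in macrophage-like cells (interval 38.7 to 40.4) and 35.5% in mesothelial-like cells (interval 32.8 to 38.3). H2-Aa made up 20.1% and 19.7%, H2-Ab1 19.5% and 20.8%, and H2-Eb1 15.5% and 17.4% of these UMIs. H2-DMb1 made up 2.16% (interval 1.91 to 2.44) and 3.32% (interval 2.38 to 4.50). The share of Cd74 was lower in mesothelial-like cells, with intervals that did not overlap, while those of the other members overlapped. The Cd74 share was 35.0% in epithelial-like (interval 33.1 to 36.9), 26.4% in stromal-like (18.8 to 35.2) and 39.2% in endothelial-like cells (28.0 to 51.2). In unnamed cluster 12 it was 38.6% (36.0 to 41.3). The 8 mesothelial-like cells with most member UMIs held 46.8% of them, a spread between cells that the intervals do not cover. Single mesothelial-like cells ranged from 0, in 15 of 74 cells, to 200 member UMIs per 10000 UMIs, with a median of 12.2. No mesothelial-like cluster was found in the large tumor, so this level has no second sample. With a resolution of 0.4 or with 20 principal components the mesothelial-like cells joined stromal-like cells in 1 unnamed cluster.

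Stromal-like and endothelial-like cells were low. In the stromal-like cells of the medium tumor, led by Col1a1, Tagln and Acta2, Cd74 stood at 87.4 CPM (interval 59.8 to 123), and the summed members were 2.42-fold above the epithelial-like level (interval 2.00 to 2.91). Of the 6 members that passed the filter, 4 were over 2-fold higher, beside 15.4% of 10795 genes compared. Without the stromal-like cells that held 3 or more UMIs of the 6 macrophage genes, and with all epithelial-like cells kept, the ratio was 1.23. With such cells left out of both classes, the summed members stood at 168 CPM in stromal-like and 103 CPM in epithelial-like cells. H2-DMb1 stood apart from the other members in the stromal-like cells of the medium tumor, on few UMIs. It had 15 UMIs in 14 of 70 cells (41.0 CPM, interval 22.9 to 67.6), which was 14.1% of its macrophage level, against 1.30% for its partner chain H2-DMa with 2 UMIs. In the 43 stromal-like cells without a UMI of the macrophage genes, H2-DMb1 was at 38.3 CPM. In endothelial-like cells, Cd74 stood at 123 CPM (interval 82.6 to 177), which overlapped the stromal-like interval. The summed members were at 2.31-fold the epithelial-like level. This ratio became 0.585 without the endothelial-like cells holding 3 or more UMIs of the macrophage genes, with all epithelial-like cells kept. With such cells left out of both classes, the sums were 79.7 CPM in endothelial-like and 103 CPM in epithelial-like cells. The large tumor gave 7 member UMIs in 50 stromal-like cells, 0 of them of H2-DMb1. The H2-DMb1 level of stromal-like cells was thus seen in 1 tumor only, and sharing of counts with H2-DMb2 was not tested. All 9 member UMIs of its 11 endothelial-like cells lay in 1 cell.

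Single macrophage-like cells differed widely in class II RNA. In the medium tumor 17 of 236 cells held no member UMI, the 10th percentile was 2.68 member UMIs per 10000 UMIs, the median cell had 71.5, the 90th percentile was 339 and the maximum was 730. The 24 cells with most member UMIs gave 37.97% of them. With the shallower cells of the large tumor, 107 of 254 held none and the median was 13.5. Over the 236 macrophage-like cells, Spearman's rho of depth-scaled counts was 0.91 between Cd74 and H2-Aa and 0.92 between H2-Aa and H2-Eb1, while H2-DMa and H2-DMb1 had 0.61 and 0.63 with Cd74. These values are descriptions over cells of 1 library that share their depth scaling. Over the 254 cells of the large tumor, H2-Aa and H2-Ab1 had a rho of 0.74, while H2-DMa had 0.39 with H2-Aa, 0.38 with H2-Ab1 and 0.32 with H2-Eb1.

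**Figure D3:**
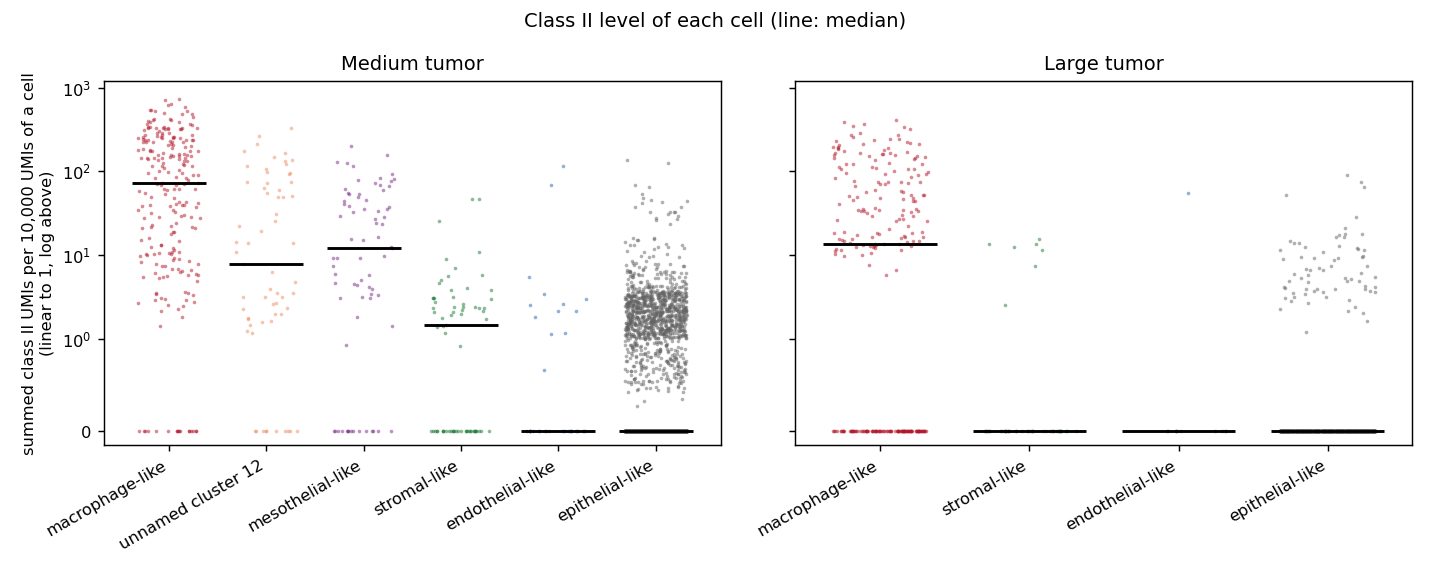
Summed class II UMIs per 10000 UMIs of each cell, by cell class, in the medium (left) and large (right) tumor, on an axis that is linear to 1 and logarithmic above, with the median as a line. Macrophage-like cells of the medium tumor run from 0 to 730 with a median of 71.5, mesothelial-like cells have a median of 12.2, and most epithelial-like cells lie at 0 or near 1 UMI.

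The 2 macrophage-like clusters of the medium tumor differed little in summed class II RNA. The larger, of 196 cells, was led by Wfdc17, Chil3 and Lyz2 and stood at 13267 CPM of summed members. The smaller, of 40 cells with 5 of 5 cycling markers and with C1qa, Cd74 and H2-Ab1 among its leading genes, stood at 14189 CPM, 1.07-fold higher (interval 1.02 to 1.12). With 20 principal components in place of 10, macrophage-like cells split another way, and the spread became 12.3-fold. A cluster of 31 cells, led by Saa3, Prg4, Marco, Serpinb2 and Cd5l, had the summed members at 1228 CPM (interval 1043 to 1438), against 15070 CPM in a cluster of 214 cells. Of these cells, 206 of the 214 and 30 of the 31 were macrophage-like before. The class II genes were not among the variable genes of this clustering either. Cd74 was 13.2-fold lower in the 31 cells (interval 10.1 to 17.4), H2-Eb1 16.5-fold lower, H2-Aa 12.9-fold lower, H2-Ab1 9.93-fold lower, H2-DMb1 8.08-fold lower and H2-DMa 7.33-fold lower. Macrophage genes differed less, with Lyz2 2.02-fold lower, Fcer1g 1.90-fold lower, C1qa 1.63-fold lower, C1qb 1.26-fold lower, C1qc 1.24-fold lower and Tyrobp at 2940 against 2753 CPM. Of the 11 macrophage markers, 9 were detected in the 31 cells, and their median depth of 3612 UMIs was close to the 3516 UMIs of the larger cluster. Ctss, cathepsin S, was 3.57-fold lower and Irf8, an interferon regulatory factor of myeloid cells, stood at 23.8 against 98.6 CPM, 4.15-fold lower on 3 UMIs (interval 1.37 to 20.5). Spi1, which encodes the myeloid factor PU.1, stood at 166 against 206 CPM with overlapping intervals.

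**Figure D4:**
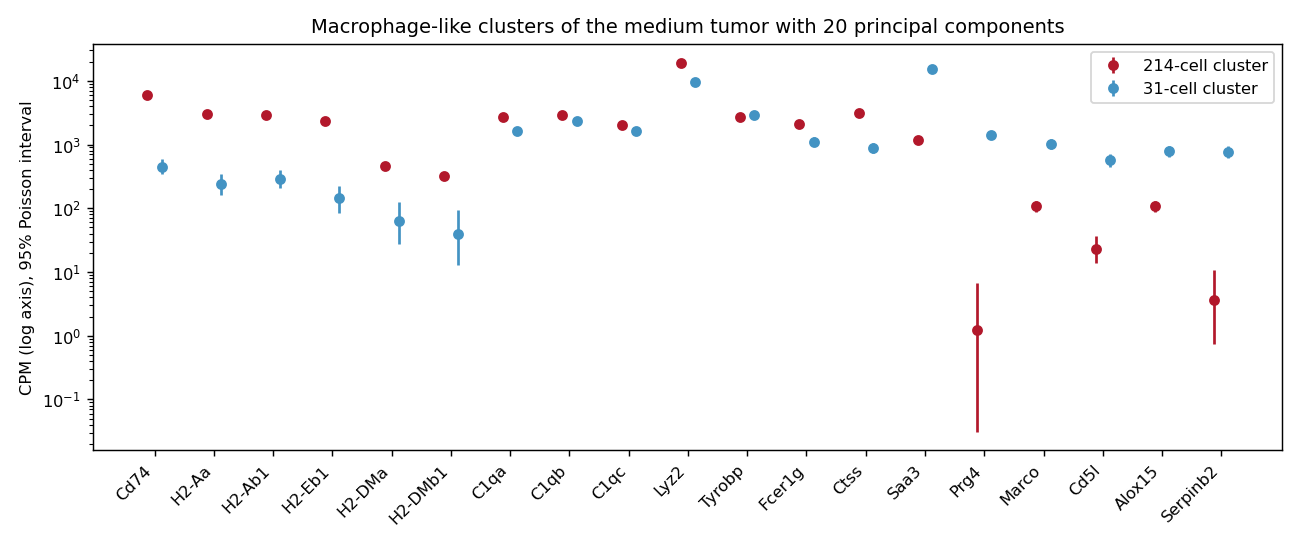
Levels, with exact 95% Poisson intervals on a log axis, in the macrophage-like clusters of 214 cells (red) and 31 cells (blue) that 20 principal components gave in the medium tumor. The 6 class II genes at the left lie 7.33-fold to 16.5-fold lower in the 31 cells, the macrophage genes in the middle differ by less than 4-fold, and the genes at the right led the cluster.

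Genes were also ranked over single macrophage-like cells, the 236 cells set by the main clustering. These include 30 of the 31 cells above, so the ranking is not separate from that split. Among 613 genes with at least 200 UMIs in the macrophage-like cells of the medium tumor, Saa3, an acute-phase protein gene, had the lowest Spearman's rho with the summed members (-0.51), followed by Lrg1 (-0.47), Slpi (-0.42), Tpt1 (-0.40) and Prtn3 (-0.40). The highest were Clec4n, a C-type lectin (0.54), AA467197 (0.45), Mmp12, macrophage elastase (0.40), Acp5 (0.37), Cd52 (0.36), Ctsc (0.35), Fcgr2b (0.35), Fcer1g (0.34), Bcl2a1b (0.32) and Tmsb4x (0.31). In the 254 macrophage-like cells of the large tumor, Saa3 had a rho of -0.28 and Clec4n one of 0.27, while Ctsc had -0.11. UMIs per cell had a rho of -0.07 with the summed members in the medium tumor. Across the 14 clusters of that tumor, the 10 genes whose log2(CPM + 1) went most closely with the members, of 7832 ranked, were C1qc (Pearson's r 0.98), C1qb, F10, Clec4e, Samhd1, Ctss, Emb, Fcgr2b, Nlrp3 and Fcer1g (0.95). Samhd1 had 43.4 CPM in mesothelial-like and 77.7 CPM in macrophage-like cells, whereas C1qc had 97.1 and 2037 CPM.

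The rest of the pathway was taken from a list of 45 other genes, 41 of which have a row. Of the 29 that passed the filter in the medium tumor, 13 were over 2-fold higher in macrophage-like than in epithelial-like cells with 1 UMI added to each sum and 2 were over 2-fold lower, beside 10.5% and 27.1% of all genes. Of these 13, Irf1 and Socs1 were under 2-fold by their CPM, which leaves 11. The 13 include the 3 costimulation genes Cd86 (110 against 18 UMIs), Cd83 (80 against 26) and Cd40 (9 against 49), none of which passed by epithelial-like UMIs alone, so the filter favoured a higher level. The median log2 ratio was 0.79 against -0.39 over all genes compared. The other class II genes were near the limit of detection in macrophage-like cells, with 24 UMIs of H2-DMb2, 4 each of H2-Oa and H2-Ob, which encode the modulator of H2-DM, and 0 of H2-Eb2. Among the regulators, Spi1 stood at 199 against 2.77 CPM, Irf8 at 90.8 against 6.09 CPM and Irf1 at 20.8 against 10.8 CPM. The RFX subunits were not higher in macrophage-like cells, with Rfxap at 36.1 against 43.7 CPM and Rfxank at 1.09 (interval 0.0277 to 6.10) against 5.04 CPM. Rfx5 did not pass the filter, with 0 UMIs, which allows up to 3.28 CPM, against 2.27 CPM. Ifngr1, a chain of the interferon gamma receptor, stood at 101 CPM in macrophage-like and 105 CPM in epithelial-like cells. Of the pathway genes that passed the filter, 6 of 17 were over 2-fold higher in the macrophage-like cells of the large tumor and 0 lower (6 and 1 by CPM), beside 10.1% of all genes higher and 24.4% lower. In mesothelial-like cells 9 of 27 were higher, or 8 by CPM, where Spi1 was under 2-fold, and 4 were lower (Rfxap, Nfya, Ifngr1 and Cd44), beside 13.7% higher and 13.8% lower. In stromal-like cells 6 of 26 were higher, or 5 by CPM, where Irf1 was under 2-fold, and 1 (Rfxap) was lower, or 3 by CPM, beside 15.4% higher and 12.3% lower.

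Most antigen processing genes were higher in macrophage-like cells. In the medium tumor 5 of 6 were over 2-fold higher (Ctss, Ctsl, Ctsb, Lgmn and Ifi30) and 0 lower, beside 10.5% and 27.1% of all genes. In the large tumor 5 of 6 were also higher, with Sppl2a in place of Ctsl, beside 10.1% of all genes. In the medium tumor Ctss, which cleaves the invariant chain, stood at 2948 against 19.9 CPM, Lgmn, an asparaginyl endopeptidase of lysosomes, at 549 against 79.3 CPM, and Ifi30, a lysosomal thiol reductase, at 567 against 58.6 CPM. Cd86, a costimulatory ligand, stood at 120 against 0.996 CPM. Of 5 partners of surface CD74, the 3 that passed the filter were within 2-fold, with Mif, its ligand, at 1002 against 856 CPM, Ddt, a relative of Mif, at 81.0 against 77.3 CPM and Cd44, its signalling partner, at 405 against 564 CPM. Below the filter, the chemokine receptor Cxcr4 had 23 UMIs against 25 (25.2 against 1.38 CPM) and Cxcr2 had 4 against 9. Of the 3 genes on the T cell side, Cd4 and Cd3e had 0 UMIs in the macrophage-like cells of both tumors. Lag3, the only 1 to pass the filter, had 1 UMI in those of the medium tumor against 97 in its epithelial-like cells. It was over 2-fold higher in mesothelial-like (5 UMIs) and stromal-like (7 UMIs) than in epithelial-like cells. Whether T cells were present cannot be read from these counts. The regulator Ifng had 0 UMIs in the macrophage-like cells of both tumors. The dendritic cell list gave 25 UMIs over 10 markers in those of the medium tumor. Xcr1, Ccr7, Batf3, Ccl22 and Fscn1 were seen, and Flt3, Clec9a, Cd209a, Zbtb46 and Siglech were at 0.

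Of 22 genes induced by interferon gamma, 6 passed the filter between macrophage-like and epithelial-like cells of the medium tumor, and 2 of these, Psmb8 and Cxcl10, did so by their UMIs in epithelial-like cells alone. Both were over 2-fold higher in macrophage-like cells, beside 10.5% of all genes, while Gbp7, Tap1, Psmb9 and Cd274 passed only through the macrophage-like cells and had to be higher. In the mesothelial-like comparison 4 passed, Psmb8 and Cxcl10 again by epithelial-like UMIs alone. Both were over 2-fold higher, beside 13.7% of all genes, while Gbp2 and Psmb9 passed only through the mesothelial-like cells. Gbp2, a guanylate binding protein, had 40 UMIs in mesothelial-like cells (102 CPM) against 1.66 CPM in epithelial-like and 8.75 CPM in macrophage-like cells. Psmb8, an immunoproteasome subunit, stood at 238 CPM in mesothelial-like, 225 CPM in macrophage-like and 11.7 CPM in epithelial-like cells. In the stromal-like comparison 2 of the list passed and both were higher, beside 15.4% of all genes, while in the large tumor only Cxcl10 passed and was within 2-fold. Ifngr1 had 23.0 CPM in mesothelial-like cells, its lowest level of the 6 groups.

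Between the tumors, the members differed unequally in macrophage-like cells. Cd74 was 69.9-fold higher in the medium than in the large tumor (interval 42.3 to 125), the largest ratio of all 2660 genes compared with 1 UMI added to each sum. H2-DMb1 was 3.19-fold higher (interval 1.98 to 5.46), H2-Eb1 2.16-fold higher, H2-Ab1 2.02-fold higher and H2-Aa 1.36-fold higher (interval 1.22 to 1.52). H2-DMa had a ratio of 0.971 (interval 0.766 to 1.24). Over 2-fold, 4 of the 6 members that passed the filter were higher in the medium tumor and 0 lower, beside 11.4% of all genes higher and 8.12% lower. Of these 4, Cd74 (15 UMIs in the large tumor) and H2-DMb1 (18 UMIs) passed only through the medium tumor, where they were high, so the count is no support. H2-Ab1 fell to 1.65-fold and H2-Eb1 to 1.79-fold at resolution 0.4, which leaves 2 of the 4, and H2-Ab1 was also under 2-fold with 20 principal components (1.96), with each cell classed by its own markers (1.82), as a mean over cells (1.87) and without cells holding 3 granulocyte UMIs (1.95). The summed members were 2.77-fold higher (interval 2.60 to 2.96), and 1.70-fold higher without Cd74 (interval 1.59 to 1.82). Macrophage genes ran from 4.29-fold higher for C1qb to 0.675-fold for Ctss. Of the 16 pathway genes compared, Spi1 was over 2-fold higher in the medium tumor (2.80-fold), having passed the filter only through that tumor (182 against 14 UMIs), and Lgmn over 2-fold lower (2.09-fold).

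**Figure D5:**
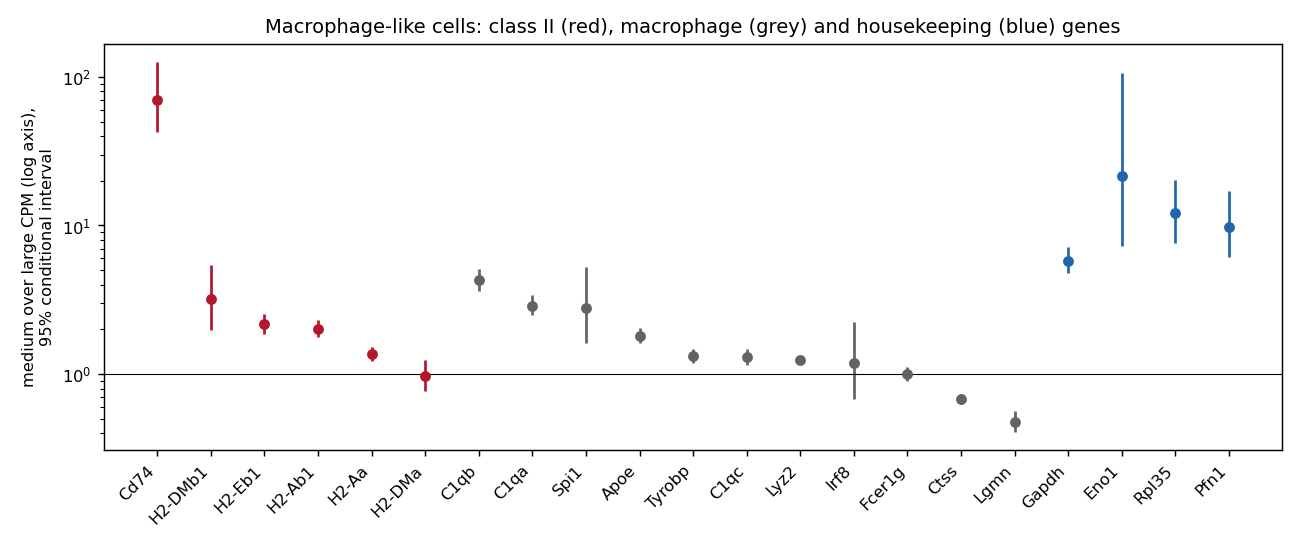
Ratio of CPM between the medium and the large tumor in macrophage-like cells on a log axis with exact conditional 95% intervals, for class II genes (red), macrophage genes (grey) and widely expressed genes (blue). Cd74 lies at 69.9, far above the other class II genes at 0.971 to 3.19, and Eno1 and Rpl35 also lie above 10.

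Cd74 was also low in the large tumor as a whole, as were some widely expressed genes. Over all cells, Cd74 had 6731 UMIs in the medium and 18 in the large tumor, while H2-Aa had 3544 and 430. The large tumor had 0.0383 Cd74 UMIs for each H2-Aa UMI in macrophage-like cells, against 1.96 in the medium tumor. The following genes were chosen after their values were seen. Rpl35, a ribosomal protein gene, was 12.1-fold higher in macrophage-like cells of the medium tumor, Pfn1, profilin, 9.84-fold, Eno1, enolase, 21.6-fold and Gapdh 5.81-fold, and over all cells Eno1 had 5101 and 17 UMIs. Of the 154 genes with at least 1000 UMIs in macrophage-like cells of the medium tumor, 2, Cd74 and Rpl35, were over 10-fold higher there. Across 2593 genes the log2 ratio had a Spearman's rho of 0.42 with the GC content of the last 500 transcript bases, a description across genes, which are not independent replicates. The GC content of Cd74 is 56.0%, that of the other members 51.8% to 55.4%, and the 348 genes within 2 points of Cd74 had a median log2 ratio of 0.49, against 6.03 for Cd74. Whether both tables were made with the same annotation and mapping settings is not given in the sources used here, so the 69.9-fold ratio may not be a difference in transcript level. The cause of the difference in Cd74 was not tested.

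Other properties moved with tumor size. The granulocyte markers stood at 8224 CPM in macrophage-like cells of the large and 199 CPM in those of the medium tumor, and 6 cells held 1539 of the 1620 UMIs behind the former value. These 6 cells had the summed members at 175 CPM, against 4993 CPM in the rest. Of the macrophage-like cells, 6 of 254 in the large tumor (2.36%) and 16 of 236 in the medium tumor (6.78%) held 3 or more UMIs of these markers, and without such cells in either tumor the ratio of summed members was 2.69. Xist, the X-inactivation transcript, had 6446 UMIs in the large and 2 in the medium tumor, and the Y-linked Ddx3y had 0 and 682. Size, sex-linked expression, mouse, library and depth cannot be told apart here with 1 tumor of each size.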

How the data were processed

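Per the labels, cells of the tumors were dissociated and captured with 10x Genomics Chromium 3′ v2 chemistry. The authors aligned reads and counted UMIs with CellRanger (the submitters' processing notes name Cell Ranger and mm10; its version and annotation are not given in the sources used here) and deposited whole-number UMI counts per gene and cell barcode without normalization. Both tables were used whole, with 0 columns left out. No cell was removed and no doublet caller was run.

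Each tumor was clustered with Seurat 5.3.0 in R 4.3.3 (log normalization to 10000, 2000 variable genes, 10 principal components, resolution 0.8, as the study's methods set the components and otherwise defaults). Class II and pathway genes were left out of the variable genes. A marker was detected in a cluster when at least 10% of its cells held a UMI and its CPM was at least 25% of the highest cluster, and a name needed 3 markers and no rival class with 60% of its share. Leading genes are the top 10 by CPM ratio to the remaining cells after adding 10 CPM, where 25% of cells or more held a UMI. UMIs were summed per class and divided by the total. Intervals are exact Poisson, binomial (Clopper-Pearson) or conditional at the 95% level, PCR and capture errors not included, and a count of 0 allows 3 UMIs of the total. Ratios against all genes used genes with 50 UMIs in both groups together and 1 UMI added to each sum. Thinned shares are exact expectations. TMM scaling used edgeR 4.0.16. GC content and positions came from GENCODE M21. Python 3.11.15, numpy 2.4.6 and scipy 1.17.1 were used, and the steps were tested on simulated data.

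Genes named in the text are the members, a fixed part of the pathway lists, the 10 genes most alike across clusters, the 10 highest and 5 lowest over macrophage-like cells, and leading genes. The interferon gamma genes named outside the counts were chosen after their values were seen, and the marker thresholds after the markers' values were seen. The members and lists were chosen with earlier results of these data known. Symbols without a row were not analysed here. Some items are not reported here. Counts of list genes by the plain ratio of CPM, with no UMI added, were made after seeing the data.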

Additional observations from a re-analysis of the deposited data

How the results depend on the processing

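No paired analysis was possible because the technical replicates that share numbers are pooled in 1 table per tumor. Of 101 alternatives to the main comparisons, 72 stayed within the main interval (counts within 1.5 times), 27 moved and 2 turned direction. Of 177 for single genes, 159 stayed, 18 moved and 0 turned. A ratio with 1 inside its main interval, as for H2-DMa between the tumors (0.766 to 1.24), was never counted as turned. Alternatives that leave out clusters, marker-holding cells or Cd74 were chosen after seeing the data, and the cause of each move was not tested unless the alternative's construction shows it.

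The macrophage to epithelial ratio of the medium tumor (98.7) was 80.9 at resolution 0.4, where the unnamed cluster joined the macrophage-like cells, 84.3 with each cell classed by its own markers, 89.98 as a mean over cells, 111 without clusters of under 5 epithelial markers and 94.1 without enterocyte- and goblet-named clusters, which gave 128 in the large tumor (98.0). The mesothelial ratio (22.6) was 20.6 as a mean over cells, 25.3 without clusters of under 5 markers and 20.6 without mesothelial-like cells holding 3 macrophage gene UMIs. The stromal ratio (2.42) was 1.82 with cells classed singly and 1.23 without such cells. The endothelial ratio of the medium tumor (2.31) was 3.00 with cells classed singly, 3.65 as a mean over cells and turned to 0.585 without cells holding 3 macrophage gene UMIs, while that of the large tumor (11.4) was 1.12 with cells classed singly and 0 without such cells, since its UMIs lay in 1 cell. Cells holding 3 macrophage gene UMIs were left out of the mesothelial-like, stromal-like and endothelial-like classes only, and all epithelial-like cells were kept. With such cells also left out of the epithelial-like class, it stood at 103 CPM in the medium tumor. Mesothelial-like cells then stood at 2815, stromal-like at 168 and endothelial-like at 79.7 CPM. By these levels the mesothelial ratio rose above 22.6. Resolution 0.4 and 20 principal components gave no mesothelial or stromal value in the medium tumor.

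The spread among macrophage clusters (1.07) was 1.36 at resolution 0.4, 12.3 with 20 principal components and 1.14 as a mean over cells. The spread among epithelial-like clusters was 3.38 as a mean over cells in the medium tumor (2.65). In the large tumor (6.34) it was 3.95 at resolution 0.4, 13.99 at resolution 1.2 and 15.6 with 20 principal components. The medium to large ratio (2.77) was 2.27 at resolution 0.4, 2.55 with cells classed singly, 2.59 as a mean over cells, 2.97 with TMM scaling and 1.70 without Cd74. Without a filter on low counts, 23 pathway genes were higher in place of 13, and 16 interferon gamma genes in place of 6, beside 34.0% of all genes. The large tumor's depth limits most of its class II values outside macrophage-like cells.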

Other observations

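Interferon gamma genes outside the immunoproteasome were also counted in the mesothelial-like cells. Irgm1, an immunity-related GTPase, stood at 38.3 CPM there against 3.28 CPM in macrophage-like cells, Igtp at 23.0 against 3.28 CPM, and Iigp1 at 23.0 CPM against 0 UMIs, each on 9 to 15 UMIs. Of other genes of the list, Gbp7 was at 33.2 against 30.6 CPM, Cd274 had 0 UMIs against 22, and Gbp5, Gbp6, Cxcl9, Ido1, Tgtp1 and Tgtp2 had 0 UMIs in both classes, which allows up to 7.66 CPM in mesothelial-like and 3.28 CPM in macrophage-like cells. Endothelial-like cells of the medium tumor had Iigp1 at 29.8 CPM on 7 UMIs, while their summed class II genes were at 2.34% of the macrophage level. These genes were chosen after their values were seen.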
